A study of Mus musculus with 6 samples.

Results

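The genes described here are 10 of the 17924 listed in the table. They were chosen by name from the mouse receptors for the constant part of antibodies and from related receptors and signalling proteins. They are the IgG receptors Fcgr1, Fcgr2b, Fcgr3 and Fcgr4, the neonatal Fc receptor Fcgrt, the adaptors Fcer1g and Tyrobp, the kinase Syk, the inhibitory receptor Sirpa and the phosphatase Ptpn6. Their RNA was measured in dermal fibroblasts isolated from the back skin of newborn (P0) mice and kept in adipocyte differentiation medium for 14 days. CTL cells came from Nelfb fl/wt or Nelfb wt/wt mice and Nelfb-/- cells from Nelfb fl/fl mice, and both groups carried Pdgfra-Cre, which removes the floxed Nelfb alleles in cells that have expressed Pdgfra. Nelfb encodes a subunit of the negative elongation factor, which holds RNA polymerase II near gene starts. Each group held 3 biological replicates. Nelfb was not measured by cell type in these cultures.

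Fc receptors let a cell read antibodies that have coated a target. Fcgr1, Fcgr3 and Fcgr4 bind IgG and signal through Fcer1g, a small adaptor whose tail carries an immunoreceptor tyrosine-based activation motif (ITAM). Src family kinases phosphorylate the ITAM, which then docks the kinase Syk. Fcgr2b carries the inhibitory counterpart of that motif (ITIM) in its own tail and dampens the response. Sirpa, the receptor for CD47, also carries ITIMs, through which it recruits phosphatases such as Ptpn6 (SHP-1). Tyrobp (DAP12) is the ITAM adaptor of receptors such as Trem2. In skin and fat these genes are best known from macrophages, whereas Fcgrt, which salvages IgG and albumin from breakdown inside the cell, is made by many cell types and Sirpa and Syk are not limited to blood cells.

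Values are given in CPM, meaning reads on a gene out of every 1e+06 that fell on listed genes. Values of a group are always given in the order of replicates 1, 2 and 3. The 6 libraries held 17.2 M to 29.4 M reads on those genes (M, 1e+06), so that 3 reads, taken as the floor of detection, were worth 0.102 to 0.175 CPM. Nelfb itself lay at 17.3, 19.6 and 22.3 CPM in the CTL libraries and at 5.50, 3.90 and 5.55 CPM in the Nelfb-/- libraries. Its log2 fold change was -1.99, with an SE of 0.22 and a limma adjusted p of 0.0050. Of 16252 genes tested with limma, 1232 rose and 592 fell at an adjusted p of at most 0.05 and at least 2-fold, which is the threshold for every call below. With quantile normalization the split was 1014 higher and 834 lower, and the median log2 fold change of all genes moved from 0.068 to -0.068. In a principal component analysis the first component (59.9% of the variance) separated the groups, and on the second (27.7%) CTL replicate 3 and Nelfb-/- replicate 1 lay furthest apart, at -74.9 and 79.2. Results are therefore also given without these 2 libraries. That setting was chosen after the data were seen, so that a call in it is not independent support.

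Of the 10 genes, 7 rose in Nelfb-/- cells, against 7.58% of all genes tested. The median log2 fold change of all 10 was 2.88, against 0.068 over all genes tested, and all 10 estimates were positive, as were 54.6% of those of all genes. The share of all genes that fell was 3.64%. In 8 of the 10 the lowest Nelfb-/- library lay above the highest CTL library, a separation seen in this direction in 22% of all genes. The genes that rose were Fcgr1, Ptpn6, Fcgr2b, Tyrobp, Fcgr3, Fcer1g and Sirpa, and those that did not pass were Fcgr4, Syk and Fcgrt. All 10 passed the filter on low values. The count was 8 without CTL replicate 3 and Nelfb-/- replicate 1, where 17.7% of all genes rose. It fell to 2 without CTL replicate 2 and to 2 without Nelfb-/- replicate 3, where 3.29% and 1.79% of all genes rose, and the 2 left in each case were Fcgr1 and Ptpn6.

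**Figure D1:**
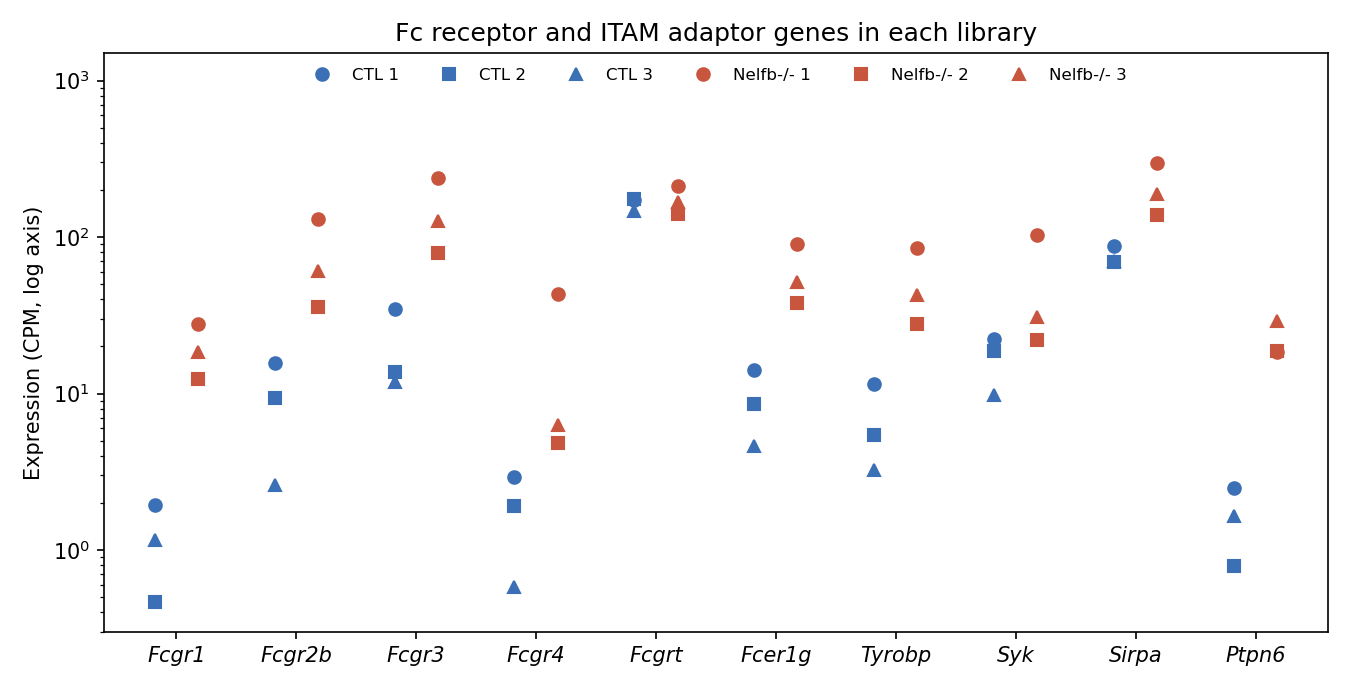
Expression of each gene in each library, in CPM on a log axis, with CTL in blue, Nelfb-/- cells in red and the symbol giving the replicate number. The groups are apart for 8 of the 10 genes and overlap for Fcgrt and Syk, and Nelfb-/- replicate 1 is the highest library for 9 of the 10.

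The 3 activating IgG receptors did not share one gene neighbourhood. Fcgr1 lies at chr3:96282909-96293969, whereas Fcgr2b (chr1:170958617-170976547), Fcgr4 (chr1:171018920-171029761) and Fcgr3 (chr1:171051174-171064935) lie within 106 kb of each other in GRCm38, followed after 165 kb by their adaptor Fcer1g (chr1:171229572-171234365). RefSeq promoter sequences (GRCm38.p6) were matched for 8 of the 10 genes. Tyrobp and Sirpa were not matched. Since most of these genes moved together, their promoters were searched on both strands for GAGGAA, the core of sites for the myeloid factor PU.1, and for TTCNNNGAA, the GAS element that STAT proteins bind. The search covered 250 bases before each RefSeq start. In the annotation that gives the gene positions, the windows of Fcgr2b, Fcgr3 and Syk lie inside the gene, and annotated exon covers 187 bases of the Fcgr2b window and all 250 bases of the Syk window. The windows are called promoters here by their RefSeq start alone, and the 2 motifs share no base in these promoters. The last 120 bases before the start are shown for the 3 activating receptors, which hold a match, and for Fcer1g and Fcgrt, a gene that rose and one that did not, which hold none. Capitals mark the matches.
Fcgr1: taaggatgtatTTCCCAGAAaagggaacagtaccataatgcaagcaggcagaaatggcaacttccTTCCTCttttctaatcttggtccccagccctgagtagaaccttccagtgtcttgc
Fcgr3: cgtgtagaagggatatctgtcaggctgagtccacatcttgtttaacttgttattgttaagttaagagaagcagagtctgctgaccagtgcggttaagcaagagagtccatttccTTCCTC
Fcgr4: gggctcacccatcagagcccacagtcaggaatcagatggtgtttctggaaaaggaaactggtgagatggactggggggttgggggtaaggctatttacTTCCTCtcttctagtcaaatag
Fcer1g: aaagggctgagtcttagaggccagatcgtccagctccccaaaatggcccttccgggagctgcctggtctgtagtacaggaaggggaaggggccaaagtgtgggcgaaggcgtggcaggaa
Fcgrt: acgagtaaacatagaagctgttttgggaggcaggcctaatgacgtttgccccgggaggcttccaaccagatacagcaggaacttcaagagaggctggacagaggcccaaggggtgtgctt
These stretches, read on the strand of each gene, are chr3:96293970-96294089 (minus strand) for Fcgr1, chr1:171059404-171059523 (minus) for Fcgr3, chr1:171018806-171018925 (plus) for Fcgr4, chr1:171234350-171234469 (minus) for Fcer1g and chr7:45103823-45103942 (minus) for Fcgrt. The PU.1 core, present as its reverse complement TTCCTC, begins 55 bases before the start in Fcgr1, 6 bases before it in Fcgr3 and 22 bases before it in Fcgr4. The GAS match in Fcgr1 begins 109 bases before the start. Fcer1g, Fcgr2b, Fcgrt, Ptpn6 and Syk held neither motif in their 250 bases. Of 32536 promoter windows of the same length, 23.4% held GAGGAA and 7.04% held TTCNNNGAA. TATAAA, the TATA box, was also searched and was in none of the 8 promoters (12.3% of all windows), and CANNTG, the E-box, was in the promoters of Fcer1g, Fcgr1, Fcgr2b, Fcgr4, Ptpn6 and Syk (66.2% of all windows). The matches are letters in a window and no binding was measured.

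Fcgr1, the high-affinity IgG receptor and a gene known to respond to interferon gamma, had the largest log2 fold change of the 10. It lay at 1.94, 0.467 and 1.16 CPM in the CTL libraries and at 27.6, 12.3 and 18.4 CPM in the Nelfb-/- libraries. The CTL values rest on few reads, about 10 in CTL replicate 2, and every Nelfb-/- library was far above them. Its log2 fold change was 4.11, with an SE of 0.55 and a limma adjusted p of 0.0079, and it kept its call under all 19 alternatives run.

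Fcgr3, the low-affinity activating receptor found on most myeloid cells, was the most abundant of the 4 IgG receptors. Its CTL libraries held 34.5, 13.8 and 11.8 CPM and its Nelfb-/- libraries 239, 79.5 and 126.5 CPM. The lowest Nelfb-/- library was above the highest CTL library, although values spanned 2.92-fold within CTL and 3.0-fold within Nelfb-/- cells. This came to a log2 fold change of 2.91, with an SE of 0.53 and a limma adjusted p of 0.017.

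Fcgr4, the activating receptor for IgG2a and IgG2b, lay at 2.93, 1.91 and 0.578 CPM in the CTL libraries and at 43.4, 4.83 and 6.28 CPM in the Nelfb-/- libraries. The groups did not overlap, but Nelfb-/- replicate 1 was 8.99 times Nelfb-/- replicate 2, the widest spread of any of the 10 genes in that group. A log2 fold change of 2.84 (SE 0.96) did not pass the test (limma adjusted p = 0.094). It was 1.85 without Nelfb-/- replicate 1, where it did not pass. Without CTL replicate 3 and Nelfb-/- replicate 1 it was 1.20 and passed (limma adjusted p = 0.012). In that setting, chosen from these data, 17.7% of all genes rose, against 7.58% with all 6 libraries.

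Fcgr2b, the one inhibitory receptor among the IgG receptors, rose as Fcgr1 and Fcgr3 did. Its values were 15.7, 9.36 and 2.62 CPM in the CTL libraries and 131, 36 and 60.5 CPM in the Nelfb-/- libraries. The groups were apart, with CTL replicate 3 the lowest library and Nelfb-/- replicate 1 the highest. The log2 fold change was 3.17, with an SE of 0.74 and a limma adjusted p of 0.034. The call was lost without CTL replicate 2 or without any one of the 3 Nelfb-/- replicates, with a highest limma adjusted p of 0.11. The log2 fold change was 2.44 without CTL replicate 3. Without both CTL replicate 3 and Nelfb-/- replicate 1 it was 1.94 and passed. In that setting the log2 fold changes of Fcgr3, Fcer1g and Tyrobp were 2.20, 2.01 and 2.13 and passed too. The share of all genes that rose was also larger there, at 17.7% against 7.58%.

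The balance between activating and inhibitory receptors was read as a ratio within each library, compared with an exact two-sided permutation test whose smallest p with 3 against 3 libraries is 0.1, over 5 pairs of genes. Fcgr3 stood at 2.20, 1.47 and 4.51 times Fcgr2b in CTL and at 1.82, 2.21 and 2.09 times in Nelfb-/- cells. The Nelfb-/- ratios lay close together and inside the CTL range, with a log2 difference of -0.27 (exact p = 0.8). Without CTL replicate 3 the difference was 0.18. Fcgr1 stood at 0.124, 0.0498 and 0.441 times Fcgr2b in CTL and at 0.211, 0.343 and 0.304 times in Nelfb-/- cells, a log2 difference of 1.0 (exact p = 0.4). Fcgr4 stood at 0.187, 0.204 and 0.220 times Fcgr2b in CTL and at 0.331, 0.134 and 0.104 times in Nelfb-/- cells, a log2 difference of -0.29 (exact p = 0.6). With all 6 libraries the groups overlapped in each of these 3 ratios. The difference of Fcgr1 to Fcgr2b was 0.26 without CTL replicate 2 and 1.83, with the groups apart, without CTL replicate 3. That of Fcgr4 to Fcgr2b was -0.78, with the groups apart, without Nelfb-/- replicate 1 (exact permutation p = 0.1 in both, the smallest for 2 against 3 libraries). Fcgr2b and Fcgr3 are close copies of each other in the exons that encode their outer part, and how the authors counted reads that match several genes is not given in the sources used here, so that the split between them is uncertain.

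The neonatal receptor Fcgrt (chr7:45092990-45103851) had the smallest log2 fold change of the 10 and did not pass. It held 174, 175 and 146 CPM in the CTL libraries and 211, 141 and 168 CPM in the Nelfb-/- libraries. The groups overlapped, and both the highest and the lowest library were Nelfb-/-. Between the groups the log2 fold change was 0.058 (SE 0.19, 95% confidence interval -0.39 to 0.51, limma adjusted p = 0.86), so that a change of 2-fold lay outside the interval. Its sign turned with median-of-ratios scaling (-0.0073), without CTL replicate 3 (-0.027) and without Nelfb-/- replicate 1 (-0.095). Fcgrt overlaps the listed gene Gm45669 over 5331 bases, and whether counting used strand is not given in the sources used here.

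Both ITAM adaptors rose, and nearly in step. Fcer1g, which also serves the IgE receptor of mast cells, held 14.1, 8.54 and 4.66 CPM in the CTL libraries and 90.0, 37.9 and 51.9 CPM in the Nelfb-/- libraries. Tyrobp (chr7:30413760-30417585) held 11.5, 5.41 and 3.26 CPM in the CTL libraries and 84.6, 27.9 and 42.9 CPM in the Nelfb-/- libraries. In both genes the 6 libraries stood in the same order, from CTL replicate 3 at the bottom to Nelfb-/- replicate 1 at the top, and the groups were apart. The log2 fold change was 2.76 for Fcer1g, with an SE of 0.47 and a limma adjusted p of 0.014, and 2.98 for Tyrobp, with an SE of 0.56 and a limma adjusted p of 0.019. Fcer1g stood at 1.23, 1.58 and 1.43 times Tyrobp in CTL and at 1.06, 1.36 and 1.21 times in Nelfb-/- cells, a log2 difference of -0.22 (exact permutation p = 0.2). Under the 8 alternatives run for this ratio the difference lay between -0.32 and -0.12.

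Syk (chr13:52583173-52648792), the kinase that docks on the phosphorylated adaptors, did not pass the test. It held 22.2, 18.6 and 9.86 CPM in the CTL libraries and 103, 21.9 and 30.8 CPM in the Nelfb-/- libraries. Nelfb-/- replicate 1 stood far above the rest, while Nelfb-/- replicate 2 was just below CTL replicate 1. The log2 fold change was 1.36 (SE 0.61, 95% confidence interval -0.092 to 2.82, limma adjusted p = 0.18), and without CTL replicate 3 and Nelfb-/- replicate 1 it was 0.35. The interval reaches past 2-fold, so that a change of that size was neither called nor outside the interval.

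Ptpn6 (chr6:124720707-124738714), the phosphatase that ITIM receptors recruit, had a fold change second to that of Fcgr1. Its values were 2.48, 0.793 and 1.66 CPM in the CTL libraries and 18.5, 18.7 and 29.3 CPM in the Nelfb-/- libraries. Ptpn6 was highest in Nelfb-/- replicate 3, the one gene of the 10 whose highest library was not Nelfb-/- replicate 1, and its Nelfb-/- values spanned 1.58-fold. The log2 fold change was 3.82, with an SE of 0.44 and a limma adjusted p of 0.0056. It was called under all 19 alternatives run. Ptpn6 overlaps Gm20531, which is not in the table. Syk stood at 8.95, 23.5 and 5.93 times Ptpn6 in CTL and at 5.57, 1.17 and 1.05 times in Nelfb-/- cells. All 3 Nelfb-/- ratios lay below the CTL ratios, a log2 difference of -2.50 with the smallest p that 3 against 3 libraries can give (exact permutation p = 0.1, 0.5 after Benjamini-Hochberg adjustment over the 5 pairs). Leaving out libraries moved it between -1.94 (without CTL replicate 2) and -3.70 (without CTL replicate 3 and Nelfb-/- replicate 1), and it was -3.27 without Nelfb-/- replicate 1.

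Sirpa (chr2:129592835-129632228), the inhibitory receptor by which phagocytes read CD47 on other cells, rose by the smallest amount of the 7 genes called. It held 88.1, 69.0 and 70.2 CPM in the CTL libraries and 298, 139 and 187 CPM in the Nelfb-/- libraries. The CTL libraries lay within 1.28-fold of each other and every Nelfb-/- library was above them. On the log2 scale the change was 1.39, with an SE of 0.29 and a limma adjusted p of 0.024. The call was lost without CTL replicate 1, CTL replicate 2 or Nelfb-/- replicate 3, with a highest limma adjusted p of 0.092.

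Levels of different genes were compared per kb of annotated exon. In CTL cells Fcgrt stood first with a median of 82.6 CPM per kb, well above Sirpa at 14.3, Fcer1g at 9.77, Tyrobp at 8.12 and Fcgr3 at 7.94 CPM per kb. The ranges of these 4 after Fcgrt overlapped in CTL. Syk (1.99), Fcgr2b (1.62) and Fcgr4 (1.52 CPM per kb) followed with overlapping ranges, and Ptpn6 (0.593) and Fcgr1 (0.447 CPM per kb) stood last. In Nelfb-/- cells the medians of Fcgrt (79.8), Fcgr3 (72.9), Tyrobp (64.3) and Fcer1g (59.4 CPM per kb) lay side by side with overlapping ranges. Sirpa followed at 38.2, with a range that overlapped those of Fcgr3, Tyrobp and Fcer1g. Then came Fcgr2b at 10.4, Fcgr1 at 7.09, Ptpn6 at 6.67, Fcgr4 at 5.0 and Syk at 3.29 CPM per kb, the last 5 with overlapping ranges.

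The markers of macrophages moved with these genes. The median log2 fold change of the 21 tested of 22 markers was 2.91. The lowest Nelfb-/- library lay above the highest CTL library for 19, against 22% of all genes. Of the 21, 16 rose, against 7.58% of all genes tested. Among them were Csf1r, the receptor for the growth factor that keeps macrophages alive (log2 fold change 3.08, SE 0.36), Adgre1, which encodes F4/80 (2.94, SE 0.51), the complement gene C1qa (3.43, SE 0.48) and Spi1, which encodes PU.1 (2.91, SE 0.56). The limma adjusted p was 0.0058 for Csf1r, 0.014 for Adgre1, 0.0089 for C1qa and 0.020 for Spi1. Of the 5 markers that did not pass, Cd68 and Mpeg1 overlapped between the groups (limma adjusted p = 0.16 and 0.14). The summed level of the 22 ran from 381 to 1473 CPM among CTL libraries and from 3279 to 11401 CPM in Nelfb-/- cells. The count of 16 fell to 3 without CTL replicate 2 (3.29% of all genes rose) and to 2 without Nelfb-/- replicate 3 (1.79%). It was 18 without CTL replicate 3 and Nelfb-/- replicate 1 (17.7%). In whole cultures, more cells of a type and more RNA per cell cannot be told apart, and the part of macrophages in the results was not tested.

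**Figure D2:**
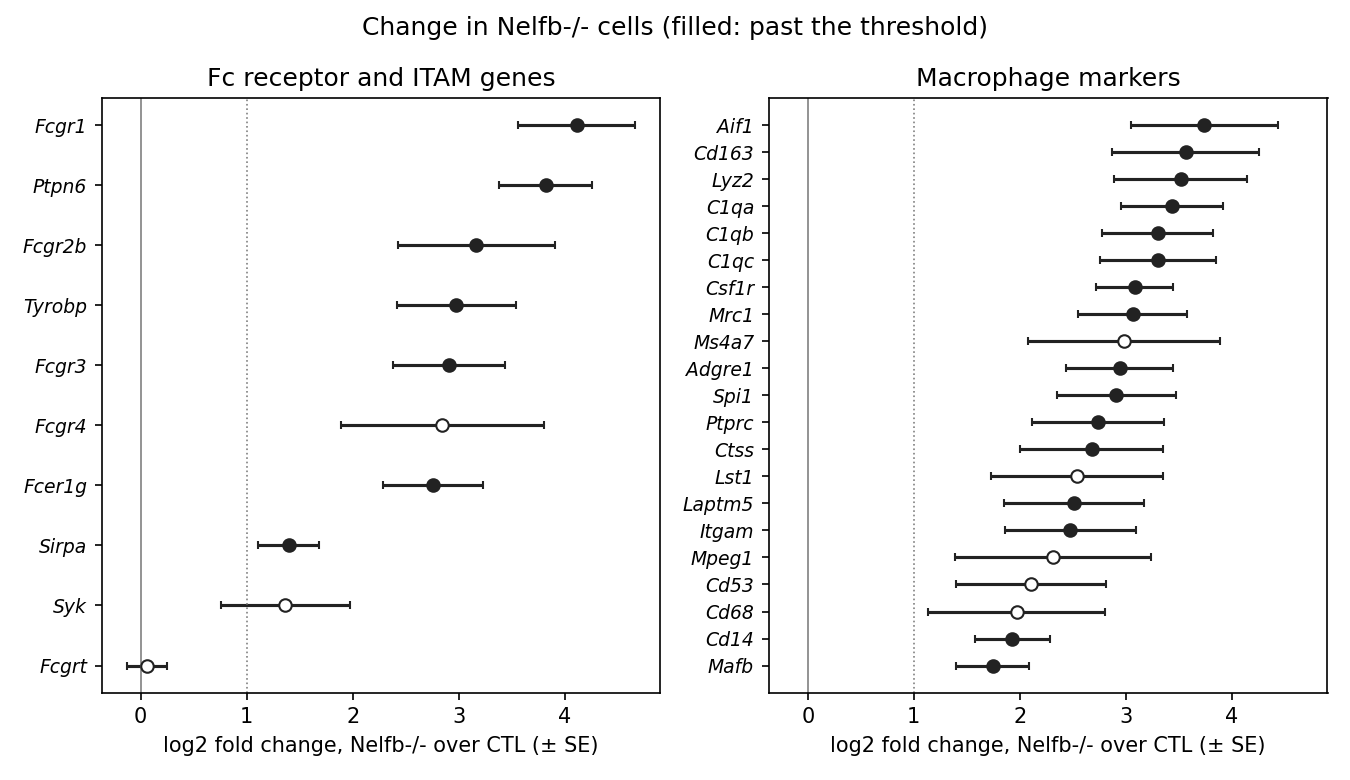
Log2 fold change of Nelfb-/- over CTL cells with its standard error for the 10 genes (left) and the 21 tested macrophage markers (right), from 3 libraries a group, with filled points for genes past the threshold, a solid line at 0 and a dotted line at 2-fold. Of the 10, 5 lie in the range of the macrophage markers (1.74 to 3.74), with Fcgr1 and Ptpn6 above it and Sirpa, Syk and Fcgrt below it.

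Each gene was then set against the macrophage markers of its own library, as its log2 level minus the mean log2 level of the 21 tested markers. The geometric mean of these markers was 27.3, 15.7 and 8.73 CPM in the CTL libraries and 222, 61.5 and 101 CPM in the Nelfb-/- libraries. It too was lowest in CTL replicate 3 and highest in Nelfb-/- replicate 1. Relative to it, Fcer1g differed between the groups by -0.072, Fcgr3 by 0.073 and Tyrobp by 0.15 on the log2 scale, and the groups overlapped for each (exact two-sided permutation p = 0.7, 0.9 and 0.2). Fcer1g held to the markers most closely in CTL, at -0.95, -0.88 and -0.91, and lay at -1.30, -0.70 and -0.96 in Nelfb-/- cells. Fcgr2b differed by 0.34 and Fcgr4 by 0.050, again with overlapping groups (exact permutation p = 0.3 and 1). The 3 Nelfb-/- libraries of Fcgr2b stood at -0.76, -0.77 and -0.74, although their CPM values spanned 3.65-fold. With libraries left out, the groups of Fcer1g were apart without Nelfb-/- replicate 2 (difference -0.22). Those of Tyrobp were apart without CTL replicate 1, without Nelfb-/- replicate 1, and without both CTL replicate 3 and Nelfb-/- replicate 1. In that last setting those of Fcgr4 were apart too (-0.71).

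Fcgr1 and Ptpn6 had the largest positive differences. Fcgr1 was at -3.82, -5.07 and -2.92 relative to the markers in CTL and at -3.0, -2.32 and -2.46 in Nelfb-/- cells, a difference of 1.34 (exact permutation p = 0.2). Ptpn6 was at -3.46, -4.31 and -2.39 in CTL and at -3.58, -1.72 and -1.79 in Nelfb-/- cells, a difference of 1.03 (exact permutation p = 0.3). In both genes the groups overlapped with all 6 libraries. Without CTL replicate 3 those of Fcgr1 were apart (1.85), and without CTL replicate 2 those of Fcgr2b were (0.51), each with an exact permutation p of 0.1. The difference of Fcgr2b was 0.018 without CTL replicate 3. The groups of both Fcgr1 and Ptpn6 were also apart without Nelfb-/- replicate 1. Leaving out libraries moved the difference of Fcgr1 between 0.77 (without CTL replicate 2) and 2.06 (without CTL replicate 3 and Nelfb-/- replicate 1), and that of Ptpn6 between 0.57 and 2.13 in the same settings.

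Syk, Sirpa and Fcgrt were lower relative to the markers in every Nelfb-/- library than in any CTL library. Syk was at -0.30, 0.24 and 0.18 in CTL and at -1.10, -1.49 and -1.71 in Nelfb-/- cells, a difference of -1.47. Sirpa was at 1.69, 2.13 and 3.01 in CTL and at 0.43, 1.18 and 0.89 in Nelfb-/- cells, a difference of -1.44. Fcgrt had the widest separation, at 2.67, 3.47 and 4.06 in CTL and at -0.068, 1.19 and 0.73 in Nelfb-/- cells, a difference of -2.78. For all 3 the exact permutation p was 0.1, the smallest the design allows, and 0.33 after Benjamini-Hochberg adjustment over the 10 genes. Without CTL replicate 3 and Nelfb-/- replicate 1 the differences were -1.57 for Syk, -0.88 for Sirpa and -2.11 for Fcgrt.

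**Figure D3:**
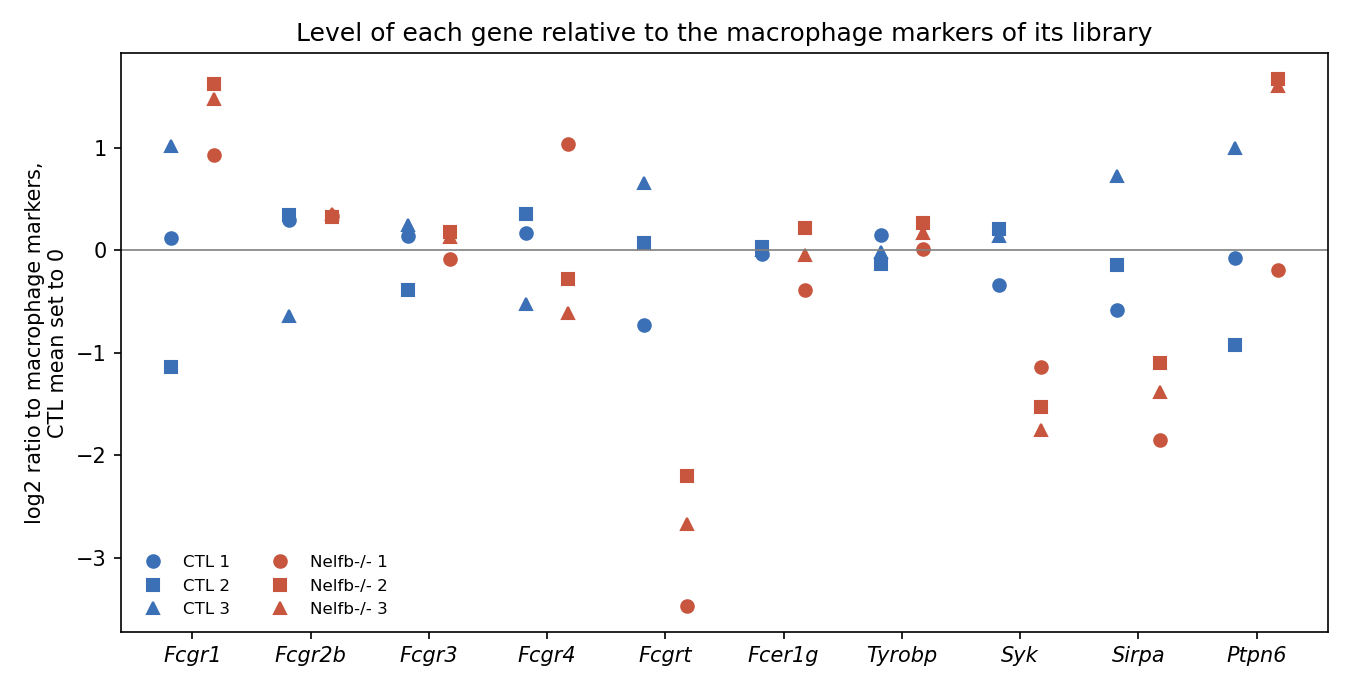
Log2 level of each gene relative to the mean log2 level of 21 macrophage markers in the same library, with the CTL mean of each gene set to 0, CTL in blue, Nelfb-/- cells in red and the symbol giving the replicate number. The group means of Fcer1g, Tyrobp and Fcgr3 differ by 0.15 or less, all 3 Nelfb-/- points of Fcgr1 and 2 of the 3 of Ptpn6 lie above 0, and the Nelfb-/- points of Fcgrt, Syk and Sirpa lie below all CTL points.

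The genes whose pattern over the 6 libraries was most like the mean of Fcer1g and Tyrobp were Lyz2, which encodes lysozyme (Pearson r = 0.9996), Adgre1 (0.9994), the inhibitory receptor gene Pirb (0.999), the folate receptor gene Folr2 (0.999) and Rac2, a GTPase of blood cells (0.999). Among the genes described here, r was 0.99 for Fcgr3 and Fcgr2b, 0.97 for Sirpa, 0.94 for Fcgr1 and Fcgr4, 0.91 for Ptpn6, 0.88 for Syk and 0.49 for Fcgrt. These values describe 6 libraries that share the difference between the groups, and 446 of 16252 genes had r above 0.95.

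The other genes of the pathway were read from 6 lists. Of 112 genes, 83 were tested and 37 rose, against 7.58% of all genes. The median log2 fold change was 2.14. In 55 the lowest Nelfb-/- library lay above the highest CTL library, against 22% of all genes. The count of 37 was 19 without CTL replicate 2 (3.29% of all genes rose), 11 without Nelfb-/- replicate 3 (1.79%) and 45 without CTL replicate 3 and Nelfb-/- replicate 1 (17.7%). In that last setting 4 pathway genes also fell, namely Inppl1, Pik3r5, Plcg1 and Siglecg, against 9.37% of all genes. They are named after their values were seen. With all 6 libraries they did not pass, and the estimate of Pik3r5 was then positive (0.89). Of 3 other Fc receptor genes tested, Fcrls, an Fc receptor-like gene, rose from 0.379 ± 0.179 to 3.39 ± 1.07 CPM (mean ± SD, n = 3 in each group, as in the values that follow). Trim21, the antibody receptor of the cytosol, was at 6.24 ± 2.15 and 11.6 ± 1.0 CPM and did not pass (limma adjusted p = 0.062). The IgE receptor genes Fcer1a and Ms4a2 were not among the listed genes.

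Of 14 tested receptors that pair with Tyrobp or Fcer1g or carry a similar motif of their own, 5 rose. Clec5a, a lectin that signals through Tyrobp, went from 0.548 ± 0.116 to 11.3 ± 4.47 CPM. Nfam1, which carries its own ITAM, went from 1.74 ± 0.852 to 30.2 ± 11.0 CPM, and Trem2, a lipid receptor of macrophages, from 12.9 ± 5.89 to 81.1 ± 65.4 CPM. Cd300ld and Pira2 also rose, with log2 fold changes of 3.54 and 2.80. The fungal lectin receptor Clec4d was at 14.7 ± 10.2 and 85.8 ± 90.3 CPM and did not pass (limma adjusted p = 0.13).

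Genes that rose on the list of Src family kinases included Fgr and Lyn, which are mainly used by blood cells. Fgr went from 0.196 ± 0.170 to 1.55 ± 0.618 CPM and Lyn from 11.2 ± 3.11 to 43.7 ± 6.75 CPM. The widely expressed Fyn was at 40.3 ± 1.10 and 48.9 ± 4.75 CPM and did not pass, with a log2 fold change of 0.27 (SE 0.13). Csk, the kinase that holds this family inactive, had a log2 fold change of 0.69, with an SE of 0.14 and a limma adjusted p of 0.023, which is short of 2-fold.

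Downstream of Syk, 11 of 25 tested genes rose. Among those that passed, the largest log2 fold changes were those of Vav1, an exchange factor for Rac GTPases (3.47, SE 0.53), the kinase Btk (3.42, SE 0.51), the PI3-kinase subunit Pik3cg (3.28, SE 0.52), the phospholipase Plcg2 (2.97, SE 0.38), Rac2 (2.95, SE 0.50) and the actin regulator Was (2.67, SE 0.55). Their limma adjusted p ran from 0.0070 for Plcg2 to 0.025 for Was. The 14 others did not pass.

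Genes listed on the braking side of the pathway rose as well. Of 20 tested genes listed as ITIM receptors 10 rose. Among them were the collagen receptor Lair1, from 0.247 ± 0.118 to 8.40 ± 1.0 CPM, and Milr1, from 0.606 ± 0.315 to 7.34 ± 1.43 CPM. Clec12a, Clec4a3, Siglec1 and Clec4a2 rose with log2 fold changes of 3.62, 3.63, 3.34 and 3.25. A place on the list does not mean that a gene carries an ITIM, and Siglec1 is not known to. Of 14 phosphatases, ubiquitin ligases and related genes listed as limiting ITAM signals 7 rose. They included Inpp5d (SHIP-1), from 4.86 ± 2.68 to 55.0 ± 35.1 CPM, and Ubash3b, which dephosphorylates Syk, from 2.22 ± 0.975 to 26.3 ± 1.68 CPM. Ptpn22 was at or under 3 reads in every CTL library and at 1.65 ± 0.824 CPM in Nelfb-/- cells. Dok3, Dok2 and Ptprc rose too, with log2 fold changes of 3.23, 3.0 and 2.74. Ptprc is also on the list of macrophage markers, and its role is not only to limit these signals.

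**Figure D4:**
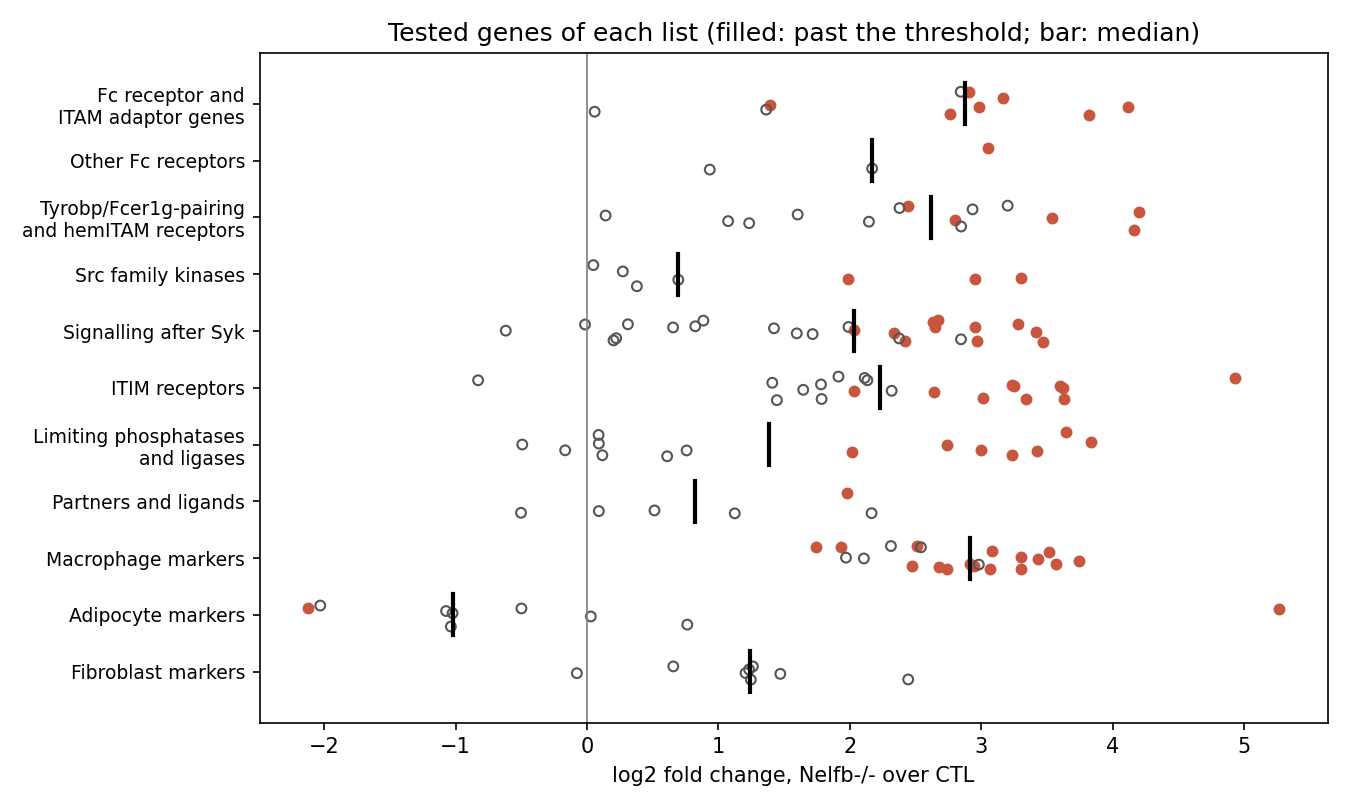
Log2 fold change of Nelfb-/- over CTL cells for every tested gene of each list, with filled points for genes past the threshold, open points for the others and a bar at the median of the list. The 10 Fc receptor and ITAM adaptor genes have a median of 2.88, close to that of the macrophage markers (2.91), while the adipocyte markers have a median of -1.02.

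Of 6 tested partners and ligands, Alb, whose protein Fcgrt salvages, was the one that rose, from 1.33 ± 0.430 to 5.35 ± 1.59 CPM. Cd47, which encodes the ligand of Sirpa, was at 134 ± 73.1 and 176 ± 14.9 CPM (limma adjusted p = 0.36), and B2m, the partner chain of Fcgrt, was at 1029 ± 297 and 744 ± 307 CPM (limma adjusted p = 0.38). Thbs1, a ligand of CD47, had a log2 fold change of 1.12 (SE 0.32) and did not pass (limma adjusted p = 0.062).

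Many markers of other immune cells were not among the listed genes. Of 11 for T and NK cells 10 were not listed, and the eleventh, Trac, was at 0.0419 ± 0.0069 CPM over the CTL libraries and 0.313 ± 0.278 CPM over those of Nelfb-/- cells. The B cell genes Cd79a, Cd79b and Ms4a1 were not listed either, nor were Ly6g and S100a9 of neutrophils and Mcpt4 of mast cells. The summed level ran from 2.04 to 5.04 CPM among CTL libraries and from 4.13 to 12.8 CPM in Nelfb-/- cells for 6 listed mast cell markers, from 0.476 to 2.66 and from 1.31 to 10.6 CPM for 5 of neutrophils and monocytes, from 1.35 to 12.6 and from 12.2 to 27.2 CPM for 2 of B cells, and from 5.03 to 9.43 and from 5.89 to 10.1 CPM for 4 of dendritic cells. Most of the B cell sum was Ighm, the IgM heavy chain gene, at 4.19, 1.35 and 12.6 CPM in the CTL libraries and 11.6, 26.8 and 21.7 CPM in the Nelfb-/- libraries, with overlapping groups (log2 fold change 2.17, limma adjusted p = 0.11). Of 8 tested genes of these lists, Gata2 of the mast cell list and Itgax of the dendritic cell list rose, with log2 fold changes of 2.17 and 3.38. Of 6 endothelial genes Emcn rose (3.54), and the 6 tested osteoclast markers did not pass. One of them, Nfatc1, had a limma adjusted p of 0.031 and a log2 fold change of 0.69, short of 2-fold.

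The markers of adipocytes and fibroblasts were high in both groups as sums, although single markers were low, such as Lep in CTL (0.865 ± 1.02 CPM). The 9 adipocyte markers summed to between 22985 and 37669 CPM among CTL libraries and between 15746 and 23797 CPM in Nelfb-/- cells, with Retn lower and Lep higher past the threshold. Of the 9, 6 had negative estimates, and 4 were lower and 2 higher at an unadjusted p under 0.05 in limma. The 8 fibroblast markers summed to between 4404 and 16812 CPM among CTL libraries and between 8255 and 33208 CPM in Nelfb-/- cells, and they did not pass (4 had an unadjusted p under 0.05 in limma). Both sums overlapped between the groups. Their part in the values of the Fc receptor and ITAM genes was not tested.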

How the data were processed

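RNA-seq of CTL and Nelfb-/- cells, 3 biological replicates each, was analysed from 1 table that the authors deposited in CPM, with an offset of 0.0001 added to every value. The submitters' processing notes name STAR 2.7, Partek 9.0.20.0202 and mm10. How reads were counted, and whether by strand, is not given in the sources used here. The authors' own comparisons were not used. Between 69.2% and 72.0% of low values (up to 20 reads) were whole reads within 0.02 read, so that no count test was run.

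After the offset was subtracted, values were scaled to a common depth of 22.3 M reads, and genes averaging 10 reads (0.448 CPM) or more were tested on log2(value + 1) with limma 3.58.1 (R 4.3.3, abundance trend, Benjamini-Hochberg over 16252 genes). A fold change on this scale understates that of low genes. The p-values measure the spread between these 6 libraries. Ratios were compared by exact permutation. As checks of the code, the limma fit was run on simulated libraries and the permutation test on made-up values of known outcome. Table names were matched to GENCODE vM21 (17551 of 17924).

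The 10 genes and all lists were chosen with earlier results of these data known, and no list was tested as a set. Of each list at most 6 genes are named, those called first and by size, then those of highest level. The 4 pathway genes that fell with libraries left out, and the genes most like Fcer1g and Tyrobp, are named besides. All macrophage markers could be named. Results for 2 list genes are not reported here. Alternatives changed the pseudocount, filter, scaling, variance model, replicate block and libraries. The setting without CTL replicate 3 and Nelfb-/- replicate 1 was added after seeing the data.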

Additional observations from a re-analysis of the deposited data

How the results depend on the processing

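Fcgr1 and Ptpn6 were called under all 19 alternatives. Without moderation of the variances the counts past the threshold were 2 of the 10 genes, 1 macrophage marker, 14 pathway genes and 684 of all genes, and with a mean of at least 10 CPM they were 16 pathway genes and 866 of all genes. Leaving out libraries gave 2 to 8 of the 10 genes, 2 to 18 macrophage markers, 11 to 49 pathway genes (45 of the 49 higher) and 426 to 4383 of all genes, the highest of each without CTL replicate 3 and Nelfb-/- replicate 1. With median-of-ratios scaling Fcgrt reversed (-0.0073), and against summed macrophage markers Fcgr3 (-0.064) and Fcgr4 (-0.088) reversed. Leaving out libraries, both together included, reversed Fcgrt (log2 fold change -0.18 to 0.20, negative without CTL replicate 3 (-0.027), Nelfb-/- replicate 1 (-0.095) or both). It also reversed, relative to the markers, Fcgr3 (-0.12 without CTL replicate 2, up to 0.27), Fcgr4 (-0.71 without both to 0.38) and Fcer1g (-0.22 to 0.088 without both), and the ratios to Fcgr2b of Fcgr3 (-0.63 to 0.26 without both) and of Fcgr4 (-0.78 to 0.052 without Nelfb-/- replicate 3). The cause was not tested.

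Libraries with the same replicate number deviated together with r of 0.52, -0.39 and 0.52, so that the numbers were not taken to pair the samples, and 3 of 6 libraries correlated best with their own number. With the replicate block 8 of the 10 genes, 21 macrophage markers, 46 pathway genes and 2175 of all genes passed, and Fcgr4 was the gene gained (limma adjusted p = 0.020).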

Other observations

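The stretch of chromosome 1 from Fcgr2b to Fcer1g holds 9 genes of the table, of which 5 are neither Fc receptors nor adaptors. These 5 were chosen after their values were seen. Cfap126, a gene of cilia, rose with the groups apart, from 2.16 ± 0.436 to 4.52 ± 0.266 CPM (SD, n = 3 each, log2 fold change 1.07, SE 0.25, limma adjusted p = 0.035). Its change was smaller than that of Fcgr2b (3.17), Fcgr3 (2.91) or Fcer1g (2.76). Sdhc, a subunit of succinate dehydrogenase, was at 155 ± 35.2 CPM in CTL and at 100.1 ± 9.32 CPM in Nelfb-/- cells and did not pass (limma adjusted p = 0.074), nor did Nr1i3 (log2 fold change -0.84), Pcp4l1 (2.48) or Tomm40l (-0.27). Pcp4l1 and Tomm40l overlapped between the groups.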
